A study of Homo sapiens with 36 samples.

Results

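A set of 10 genes of the epithelial-mesenchymal transition was followed in 3 human breast cancer cell lines in which the phosphatase DUSP4 was depleted or the kinase MEK was inhibited. They are the transcription factor genes ZEB1, ZEB2, SNAI1, SNAI2, TWIST1 and TWIST2, the cadherin genes CDH1, CDH2 and CDH11, and VIM. Each was taken as the array probe that carries its symbol and no other, and they make up 10 of the 17958 genes measured this way. ZEB2 had 2 such probes, of which the brighter was kept, and the other 9 genes had 1 each.

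The transition is the programme by which sheet-forming epithelial cells lose their junctions and become motile. ZEB, SNAIL and TWIST proteins drive it by binding E-box DNA and repressing epithelial genes, above all CDH1, which encodes E-cadherin. Cells that have passed through it often make N-cadherin (CDH2) and cadherin 11 (CDH11) in place of E-cadherin, and fill their cytoskeleton with the intermediate filament vimentin (VIM). Breast cancer lines of the mesenchymal-like class, such as those used here, are known for little E-cadherin and much vimentin. DUSP4 removes phosphates from the MAP kinases ERK and JNK, while MEK is the kinase that activates ERK.

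The 36 arrays came from the lines MDA231, SUM159PT and BT549, each with 4 groups of 3 arrays. All cells were reverse transfected with siRNA at 10 nM and harvested after 96 h. The siCONTROL group received the non-targeting siRNA and DMSO, and the siDUSP4 group received siRNA against DUSP4 and DMSO. The AZD6244 4h and AZD6244 24h groups received the non-targeting siRNA and 1 uM of the MEK inhibitor selumetinib (AZD6244) for the last 4 or 24 h. MDA231 was grown in DMEM, BT549 in RPMI and SUM159PT in DMEM/F12 with hydrocortisone, all with serum, so line and medium cannot be told apart. Each line is a single established line, DUSP4 was targeted by a single siRNA reagent, and no group combines DUSP4 depletion with the drug. The labels do not say whether the replicate letters A, B and C mark separate cultures, and every p-value therefore reflects array-to-array spread alone, which may be technical.

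Lines and treatments follow the titles of the samples. For 24 of the 36 arrays the title and the cell line field name SUM159PT where the source name and description name BT549, or the reverse. Following the other fields would exchange those line names throughout and leave every array with the same companions. RB1, which BT549 is known to have lost, read 6.83 ± 0.16 (log2, SD, n = 3) on the siCONTROL arrays titled BT549, 9.40 ± 0.01 in those titled SUM159PT and 10.31 ± 0.09 in those titled MDA231. In the 3 BT549 siDUSP4 arrays RB1 stood higher, between 7.95 and 8.15 (change 1.20 ± 0.09 SE, limma adjusted p = 4.85e-11). All 3 arrays of that group show it, so no BT549 siDUSP4 result can be given without them, and its part in those results was not tested. PDGFRA, at 10.92 in SUM159PT siCONTROL arrays, was at 4.30 in these BT549 siDUSP4 arrays, and EPCAM, at 8.39 in MDA231, was at 4.99, against 4.62 and 4.89 in BT549 siCONTROL.

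DUSP4 signal after siDUSP4 was 18.7% of siCONTROL in MDA231, 27.9% in SUM159PT and 21.1% in BT549. With selumetinib DUSP4 was lower too, at 19.6% of siCONTROL after 4 h and 41.8% after 24 h in MDA231. It stood at 39.3% and 55.4% in SUM159PT, and at 63.1% and 60.6% in BT549. The BT549 change at 4 h was not called (limma adjusted p = 0.0619). Low DUSP4 signal was thus not limited to the siDUSP4 groups. Array medians were between 5.12 and 5.40, and arrays of a group correlated at 0.9853 to 0.9981. The lowest upper quartiles, 7.48 and 7.50, belonged to the MDA231 AZD6244 4h array B and the BT549 AZD6244 24h array A. The epithelial keratin KRT18 stood at 9.66 to 11.10 in the siCONTROL groups of the 3 lines and KRT8 at 7.34 to 11.12. The estrogen receptor gene ESR1 did not pass 4.80 on any array. Of 7 luminal epithelial markers, 5 were called higher and 1 lower in MDA231 than in BT549 (85.7%, all genes 48.1%). In SUM159PT 4 were higher and 1 lower than in BT549 (71.4%, all genes 50.2%). In MDA231 3 were higher and 1 lower than in SUM159PT (57.1%, all genes 44.8%). Of 2 basal epithelial markers measured, 2 were higher in SUM159PT than in each other line, and 0 were called between MDA231 and BT549. The endothelial gene VWF and the T cell gene CD3E stayed at or below 3.99 and 3.97 on all 36 arrays, but each is 1 gene of its marker list. Of 4 blood markers measured, 1 was called higher and 2 lower in MDA231 than in SUM159PT (75%, all genes 44.8%). Against BT549, 2 blood markers were higher in SUM159PT and 2 in MDA231 (50% each, all genes 50.2% and 48.1%). Of 3 endothelial markers, 1 was higher in SUM159PT and 1 in MDA231 than in BT549 (33.3% each). EPCAM was high in MDA231 alone (8.39, against 5.52 in SUM159PT), and the fibroblast-associated genes PDGFRA and DCN were high in SUM159PT alone (10.92 and 10.15), against 4.62 and 3.73 in BT549. All 5 fibroblast markers were called between these lines, 3 of them higher in SUM159PT (PDGFRA, DCN and PDGFRB) and 2 higher in BT549. Those were LUM (5.72 in BT549, 4.09 in SUM159PT) and FAP (6.38 and 5.74). In bulk RNA, fewer cells of a type and less RNA per cell cannot be told apart.

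Promoter sequences were taken from RefSeq (GRCh38.p14), which gave windows of 250 bases before to 50 after a start site for 5 of the 10 genes, 12 windows in all. CDH1, CDH11, SNAI1, SNAI2 and TWIST1 were not among them. The 4 shown belong to factor and cadherin genes that fell together in BT549 after siDUSP4. Capitals mark the ZEB and SNAIL E-box (CACCTG, or CAGGTG on the other strand) and the AP-1 site TGANTCA, where N is any base.
ZEB1, chr10:31318966-31319265, plus strand: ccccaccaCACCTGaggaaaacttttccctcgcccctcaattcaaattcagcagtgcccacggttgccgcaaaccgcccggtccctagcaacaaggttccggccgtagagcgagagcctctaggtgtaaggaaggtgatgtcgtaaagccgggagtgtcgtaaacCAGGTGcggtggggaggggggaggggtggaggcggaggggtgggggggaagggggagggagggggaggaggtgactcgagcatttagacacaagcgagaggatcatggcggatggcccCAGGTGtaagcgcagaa
ZEB2, chr2:144520070-144520369, minus strand: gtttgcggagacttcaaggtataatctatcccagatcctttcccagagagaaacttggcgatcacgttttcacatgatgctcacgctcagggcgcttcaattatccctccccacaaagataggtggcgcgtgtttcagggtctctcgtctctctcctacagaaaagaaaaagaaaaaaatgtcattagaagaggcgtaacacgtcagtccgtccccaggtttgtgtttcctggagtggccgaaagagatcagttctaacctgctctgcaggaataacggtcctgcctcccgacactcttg
TWIST2, chr2:238847835-238848134, plus strand: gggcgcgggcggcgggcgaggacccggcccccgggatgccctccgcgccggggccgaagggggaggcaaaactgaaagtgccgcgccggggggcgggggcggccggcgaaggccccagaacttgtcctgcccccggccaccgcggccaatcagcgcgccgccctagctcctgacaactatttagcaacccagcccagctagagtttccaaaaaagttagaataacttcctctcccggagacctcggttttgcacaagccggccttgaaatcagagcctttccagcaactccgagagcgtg
CDH2, chr18:28036592-28036891, minus strand: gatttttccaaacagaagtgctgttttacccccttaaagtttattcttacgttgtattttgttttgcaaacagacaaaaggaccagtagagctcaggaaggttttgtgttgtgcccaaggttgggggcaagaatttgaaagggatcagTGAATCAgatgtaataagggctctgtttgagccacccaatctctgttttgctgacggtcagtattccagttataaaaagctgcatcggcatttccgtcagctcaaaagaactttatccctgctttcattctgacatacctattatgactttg
ZEB1 had 7 of the 12 windows, 5 of them with no E-box, 1 with 1 and 1 with 3, and the one with 3 is shown. At least 3 E-boxes were found in 0.64% of 35116 promoter windows of this length, and at least 1 in 20.6%. E-boxes were found in 2 of the 12 windows, both of ZEB1. The CDH2 window held the AP-1 form TGAATCA, the only AP-1 match among the 12 windows and absent from the other CDH2 window, and 7.7% of all windows hold one. The ZEB2 and TWIST2 windows held neither set of letters.

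The first question was how the 10 genes stood in the siCONTROL cells of each line. The levels that follow are deposited log2 signals in the 3 siCONTROL arrays of a line, and each is compared with the same gene in other lines only, since probes differ in brightness. A gene was called when limma's adjusted p was under 0.05. Between MDA231 and SUM159PT 8 of the 10 genes were called, where 44.8% of all genes were. MDA231 and BT549 differed in 9 (48.1% of all genes), and SUM159PT and BT549 also in 9 (50.2%). The siCONTROL arrays did not overlap for 57.7%, 56.6% and 61.8% of all genes in these pairs of lines.

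**Figure D1:**
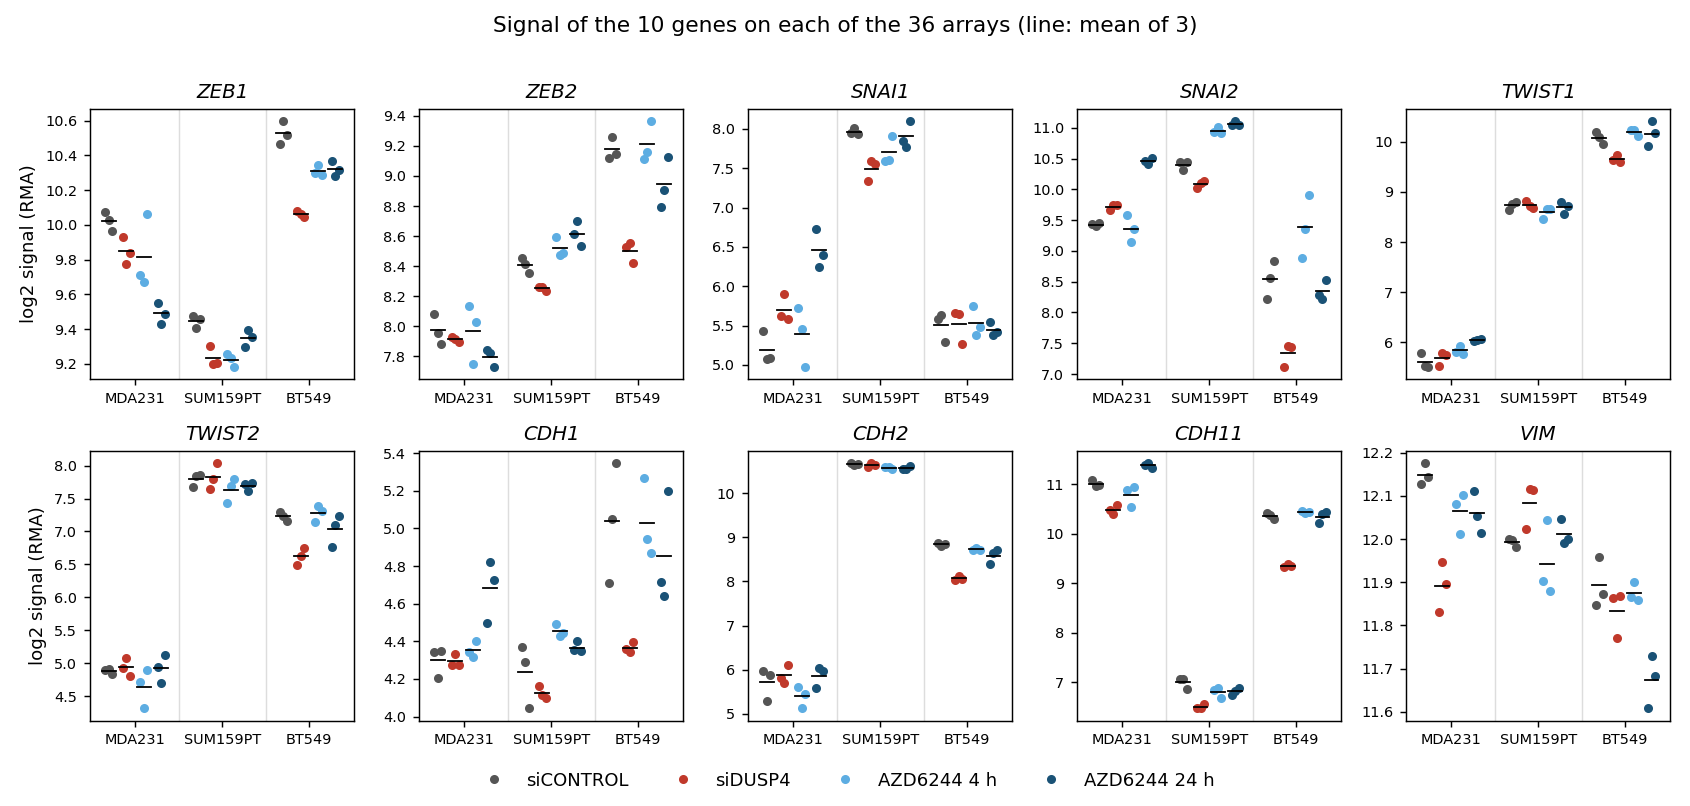
Log2 signal (RMA, vertical axis) of each gene on every array, grouped by line and coloured by treatment, with a bar at the mean of 3 arrays and a scale of its own for each gene. TWIST1, TWIST2 and CDH2 lie low in MDA231, SNAI1 is high in SUM159PT alone, CDH11 is low in SUM159PT, and VIM stays between 11.61 and 12.18.

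ZEB1 encodes a zinc finger repressor of CDH1. Its siCONTROL signals were 10.07, 10.03 and 9.96 in MDA231, 9.47, 9.41 and 9.46 in SUM159PT, and 10.47, 10.60 and 10.52 in BT549. The order BT549, MDA231, SUM159PT held without overlap, with steps of 0.51 and 0.57 on the log2 scale (adjusted p = 4.47e-06 and 5.92e-07). ZEB2, its paralogue, read 8.08, 7.96 and 7.88 in MDA231, 8.45, 8.41 and 8.35 in SUM159PT, and 9.12, 9.26 and 9.15 in BT549. BT549 was again highest, 0.77 above SUM159PT, but for ZEB2 the lowest line was MDA231, 0.43 below SUM159PT (adjusted p = 2.04e-08 and 0.000275).

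SNAI1, which encodes SNAIL, was high in SUM159PT alone. Its signals there were 7.95, 8.01 and 7.93, against 5.43, 5.07 and 5.08 in MDA231 and 5.58, 5.64 and 5.29 in BT549. The last pair of lines overlapped and were not called apart (adjusted p = 0.108). SNAI2, which encodes SLUG, was also highest in SUM159PT, at 10.45, 10.31 and 10.44. It read 9.44, 9.40 and 9.45 in MDA231 and 8.21, 8.57 and 8.84 in BT549, whose arrays were the most spread (SD 0.32). All 3 lines differed in SNAI2, the closest pair being MDA231 and BT549, 0.89 apart (adjusted p = 1.24e-05).

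TWIST1 and TWIST2 encode basic helix-loop-helix factors, and both were low in MDA231. TWIST1 read 5.78, 5.53 and 5.51 there, 8.65, 8.76 and 8.79 in SUM159PT, and 10.19, 10.10 and 9.96 in BT549. MDA231 thus had 4.49% of the TWIST1 signal of BT549 and 11.4% of that of SUM159PT. TWIST2 read 4.90, 4.92 and 4.84 in MDA231, 7.68, 7.84 and 7.85 in SUM159PT, and 7.30, 7.23 and 7.16 in BT549. Here SUM159PT was the highest, 0.56 above BT549 (adjusted p = 0.000587).

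CDH1 was dim everywhere. Its siCONTROL signals were 4.34, 4.21 and 4.35 in MDA231, 4.37, 4.29 and 4.04 in SUM159PT, and 4.71, 5.05 and 5.35 in BT549, and over all 36 arrays they ran from 4.04 to 5.35, around or below the median of all probe values (5.27). BT549 was called higher than MDA231 by 0.74 and than SUM159PT by 0.80 (adjusted p = 1.1e-05 and 2.74e-06), while MDA231 and SUM159PT differed by 0.06 (95% interval -0.20 to 0.33, adjusted p = 0.759). Folds at such signals may understate a change in RNA. In MDA231 siCONTROL the means of SNAI1 (5.19) and TWIST2 (4.89) also lay below that median. TWIST1 (5.61) and CDH2 (5.71) lay not far above it there, so the same limit applies to their folds.

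The mesenchymal cadherins showed opposite line patterns. CDH2 read 10.68, 10.65 and 10.67 in SUM159PT, 8.87, 8.80 and 8.85 in BT549, but 5.98, 5.29 and 5.87 in MDA231, which held 3.23% of the SUM159PT signal. CDH11 read 11.09, 10.95 and 10.97 in MDA231, 10.41, 10.37 and 10.30 in BT549, and 7.07, 7.07 and 6.87 in SUM159PT. The MDA231 signal of CDH11 was 4.00 log2 units above that of SUM159PT (adjusted p = 3.6e-27). VIM read 12.13, 12.18 and 12.14 in MDA231, 11.99 ± 0.01 (SD, n = 3) in SUM159PT, and 11.85, 11.96 and 11.87 in BT549. MDA231 was called higher than BT549 in VIM by 0.26 (adjusted p = 0.00318), and neither was called apart from SUM159PT (adjusted p = 0.0798 and 0.272). The difference of MDA231 from SUM159PT in VIM stayed uncalled in 4 of 7 alternative settings. It was called after repeated quantile normalization (0.28, adjusted p = 0.000161), with array medians aligned and with trended robust variance.

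The next question was what depletion of DUSP4 did to these genes. The 3 treatments of a line are compared with the same siCONTROL arrays, so their changes are not independent. After siDUSP4, CDH11 fell in all 3 lines, and BT549 lost signal in 8 of the 10 genes, while 3 were called in MDA231 and 1 in SUM159PT. Of all genes, siDUSP4 called 17.6% in MDA231, 2.83% in SUM159PT and 14.2% in BT549. The siDUSP4 and siCONTROL arrays did not overlap for 36.3%, 32.3% and 38.7% of all genes in these lines, so a lack of overlap was common. In BT549 the 8 called genes were all lower, where 9.22% of all genes were called lower, and the median change of the 10 genes was -0.64 against 0.01 over all genes. The median of the 10 genes was 0.03 in MDA231 and -0.13 in SUM159PT, against 0.01 and -0.04 over all genes.

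**Figure D2:**
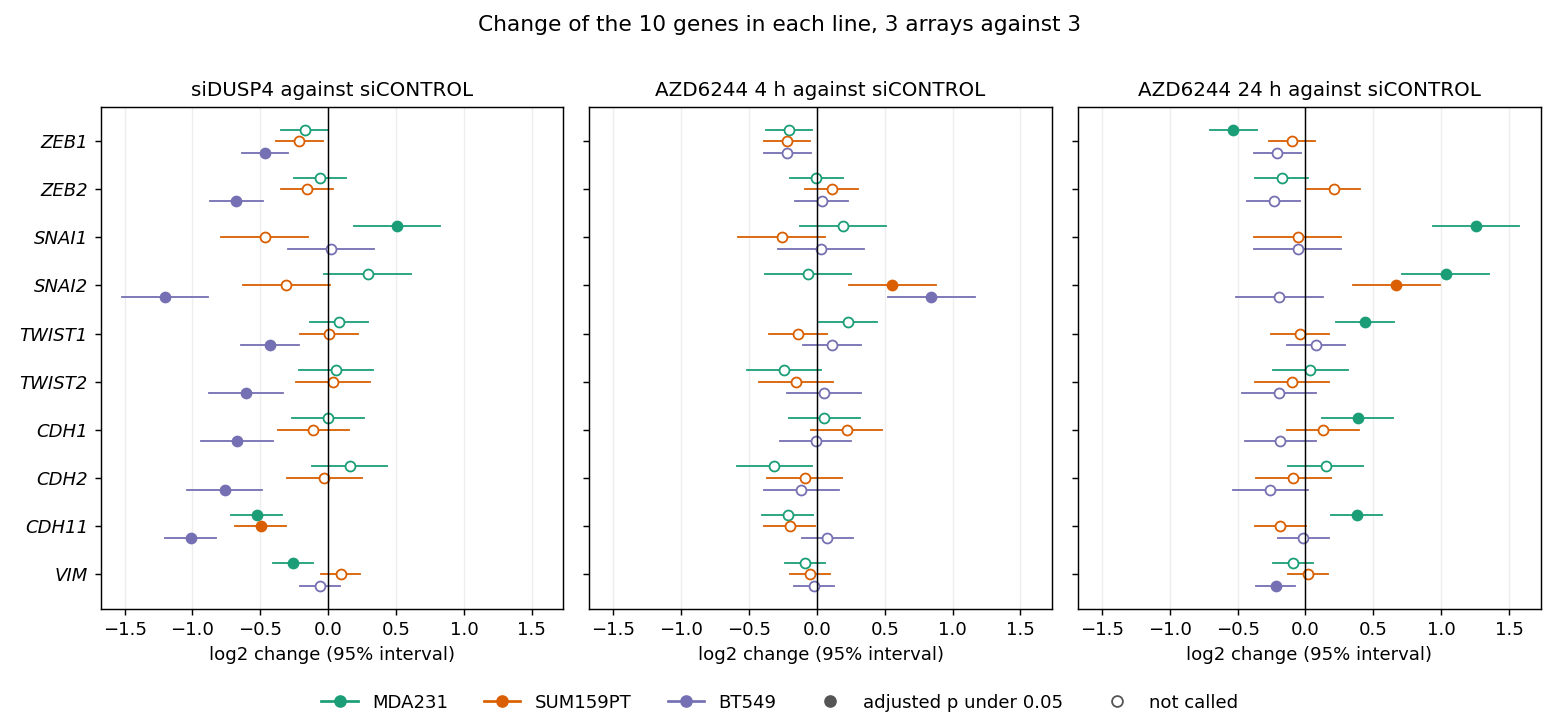
Log2 change of each gene against siCONTROL (horizontal axis, with limma's 95% interval), a panel for each treatment and a colour for each line, with filled points for adjusted p under 0.05. Filled points to the left gather in BT549 after siDUSP4 (8 genes), and filled points to the right in MDA231 after AZD6244 24h (5 genes).

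ZEB1 fell in BT549 from 10.47, 10.60 and 10.52 to 10.08, 10.06 and 10.05, with no overlap (change -0.47 ± 0.08 SE, adjusted p = 0.000173). In MDA231 it read 9.93, 9.77 and 9.84 after siDUSP4, and in SUM159PT 9.30, 9.20 and 9.20, below every control array in both lines. Neither change was called (-0.17, adjusted p = 0.175, and -0.21, adjusted p = 0.221). The mean over the 3 lines was -0.28 ± 0.05 (adjusted p = 5.64e-05), and ZEB1 was the only one of the 10 genes with no called line difference for siDUSP4 (adjusted p = 0.154).

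ZEB2 fell in BT549 from 9.12, 9.26 and 9.15 to 8.53, 8.55 and 8.42 (change -0.68 ± 0.10, adjusted p = 5.09e-06). Its changes of -0.06 in MDA231 and -0.16 in SUM159PT were not called (adjusted p = 0.801 and 0.525). The effect differed between lines (adjusted p = 0.00233). The mean change of -0.30 was called (adjusted p = 0.000161), but not when both ZEB2 probes were averaged (-0.11, adjusted p = 0.195), the other probe lying between 2.44 and 3.46 on all arrays.

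SNAI1 was called in MDA231 alone. In MDA231 it rose from 5.43, 5.07 and 5.08 to 5.62, 5.91 and 5.59 (change 0.51 ± 0.16, adjusted p = 0.0199). This call was lost with the arrays of that line alone (adjusted p = 0.1) and without siCONTROL array B (0.0931), siCONTROL array C (0.0895) or siDUSP4 array B (0.124). In SUM159PT, SNAI1 read 7.33, 7.59 and 7.56 after siDUSP4, all below the control arrays (change -0.47 ± 0.16, adjusted p = 0.114), and this was called in 3 of 8 alternative settings, namely the arrays of that line alone (adjusted p = 0.0208), the arrays of the 2 groups alone (0.012) and repeated quantile normalization (0.0469). In BT549 the change was 0.02 (adjusted p = 0.957). The lines differed in the SNAI1 effect (adjusted p = 0.00667).

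SNAI2 had the largest fall among the 10 genes in BT549, from 8.21, 8.57 and 8.84 to 7.12, 7.45 and 7.44, which left 43.4% of the control signal (change -1.20 ± 0.16, adjusted p = 1.33e-06). In MDA231 it read 9.66, 9.74 and 9.75, above every control array (0.29, adjusted p = 0.238), and in SUM159PT 10.02, 10.11 and 10.14, below every control array (-0.31, adjusted p = 0.398). With the arrays of the 2 groups alone both were called (adjusted p = 0.0288 and 0.0324), and with the arrays of the line alone that in SUM159PT was (0.015). The line difference was the clearest of the 10 genes (adjusted p = 4.58e-05).

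TWIST1 and TWIST2 fell in BT549 and in no other line. TWIST1 went from 10.19, 10.10 and 9.96 to 9.64, 9.74 and 9.59 (change -0.43 ± 0.11, adjusted p = 0.00444), and TWIST2 from 7.30, 7.23 and 7.16 to 6.49, 6.63 and 6.76 (change -0.60 ± 0.13, adjusted p = 0.00174). Their changes in MDA231 and SUM159PT were between 0.01 and 0.08, none of them called. The difference between lines was called for both (adjusted p = 0.0289 and 0.0169).

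Among the cadherins, CDH1 in BT549 went from 4.71, 5.05 and 5.35 to 4.36, 4.34 and 4.40, with no overlap (change -0.67 ± 0.13, adjusted p = 0.000404). After siDUSP4 it thus stood at the dim level of the other lines, where its changes were 0.00 and -0.11 and were not called. CDH2 fell in BT549 from 8.87, 8.80 and 8.85 to 8.03, 8.13 and 8.06 (change -0.76 ± 0.14, adjusted p = 0.000139), against 0.16 in MDA231 and -0.03 in SUM159PT (adjusted p = 0.543 and 0.961). The BT549 arrays were thus lower in both CDH1 and CDH2.

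CDH11, alone among the 10 genes, was called in every line after siDUSP4. It went from 11.09, 10.95 and 10.97 to 10.47, 10.39 and 10.57 in MDA231 (change -0.53 ± 0.09, adjusted p = 7.88e-05). In SUM159PT it went from 7.07, 7.07 and 6.87 to 6.48, 6.49 and 6.56 (change -0.50 ± 0.09, adjusted p = 0.000912). In BT549 it went from 10.41, 10.37 and 10.30 to 9.32, 9.38 and 9.34, which left 49.6% of the control signal (change -1.01 ± 0.09, adjusted p = 1.19e-09). None of the 3 pairs of groups overlapped. The size differed between lines (adjusted p = 0.0064), and the mean change was -0.68 ± 0.05 (adjusted p = 2.92e-11).

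VIM fell slightly in MDA231, from 12.13, 12.18 and 12.14 to 11.83, 11.95 and 11.90 (change -0.26 ± 0.07, adjusted p = 0.0101). The call was lost with the arrays of that line alone (adjusted p = 0.141), with the arrays of the 2 groups alone (0.05) and without siDUSP4 array A (0.0632). VIM changed by 0.09 in SUM159PT and -0.06 in BT549, neither called (adjusted p = 0.663 and 0.68), and the lines differed (adjusted p = 0.045). In the mean of the 3 lines 5 of the 10 genes were lower and none higher, namely ZEB1, ZEB2, SNAI2, CDH1 and CDH11, where 18.7% of all genes were called and 11.3% were lower. CDH2 was just outside the threshold there (-0.21 ± 0.08, adjusted p = 0.0562), and was called in 5 of 6 alternative settings (adjusted p from 0.0335 to 0.048), and without MDA231 siCONTROL array B (0.00365) or MDA231 siDUSP4 array C (0.0235). The number called in this mean was 7 after repeated quantile normalization and 6 with array medians aligned, all lower. Effects of siDUSP4 differed between lines for 9 of the 10 genes, where 15.5% of all genes did.

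Selumetinib was measured first after 4 h. In MDA231 limma called none of the 10 genes, where it called 15.6% of all genes and called 14.5% of all genes lower, and where the median of all genes was -0.13. Unadjusted p-values under 0.05 were found for 4 of the 10 (ZEB1, TWIST1, CDH2 and CDH11). The share of all genes at that threshold is not given here, so this count cannot be set against a background. Without the MDA231 AZD6244 4h array A 2 genes were called, and without array C, or without siCONTROL array B, 1 was. In SUM159PT and in BT549 SNAI2 alone was called, and it was higher in both, where 4.28% and 0.652% of all genes were called and 0.473% and 0.161% were higher.

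SNAI2 read 10.93, 11.01 and 10.92 in SUM159PT after 4 h, above the control values of 10.45, 10.31 and 10.44 (change 0.56 ± 0.16, adjusted p = 0.036). That call was lost when any 1 of the 6 arrays was left out (adjusted p from 0.0712 to 0.137). In BT549 SNAI2 read 8.89, 9.36 and 9.91, above the control values of 8.21, 8.57 and 8.84, though both groups were spread widely (change 0.84 ± 0.16, adjusted p = 0.00339). Without siCONTROL array A the adjusted p was 0.0715, without AZD6244 4h array C it was 0.0735, with the arrays of that line alone it was 0.207, and with the arrays of the 2 groups alone 0.177. In MDA231 SNAI2 read 9.59, 9.14 and 9.36 and overlapped the controls (change -0.06, 95% interval -0.38 to 0.26). The mean over the 3 lines was 0.45 ± 0.09 (adjusted p = 0.00101), and the line difference lay at the threshold (adjusted p = 0.0505).

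ZEB1 was the other gene called in the mean of the 3 lines at 4 h, and it fell there. It read 9.71, 9.67 and 10.06 in MDA231, 9.26, 9.24 and 9.18 in SUM159PT, and 10.30, 10.34 and 10.29 in BT549. Against siCONTROL these were changes of -0.21, -0.22 and -0.22, none called within a line (adjusted p = 0.0908, 0.129 and 0.417), and the mean was -0.21 ± 0.05 (adjusted p = 0.00277). In SUM159PT and BT549 the groups did not overlap, as was so for 38.4% and 19.1% of all genes. In MDA231 array C lay among the controls. Repeated quantile normalization lost the call of the mean (-0.11, adjusted p = 0.148). In the mean of the 3 lines 13.8% of all genes were called. Limma called no line difference at 4 h among the 10 genes, where 1.84% of all genes were called. Of the 10, 1 (SNAI2) had an unadjusted p under 0.05, again with no share of all genes beside it.

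After 24 h of selumetinib MDA231 had 6 of the 10 genes called, 5 higher and ZEB1 lower, where 17.7% of all genes were called and 7.36% were higher. The median change of the 10 genes in MDA231 was 0.26, against 0.02 over all genes. In SUM159PT and BT549 1 gene each was called, where 4.28% and 15.1% of all genes were.

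SNAI1 rose in MDA231 from 5.43, 5.07 and 5.08 to 6.73, 6.24 and 6.39, which is 239% of the control signal (change 1.26 ± 0.16, adjusted p = 2.28e-07). That control signal was dim (mean 5.19, median of all probe values 5.27). After 4 h it had read 5.73, 5.46 and 4.98, overlapping the controls. In SUM159PT it read 7.85, 7.77 and 8.09 and in BT549 5.54, 5.38 and 5.42 after 24 h, both overlapping the controls, with changes of -0.06 in each (adjusted p = 0.927 and 0.827). The line difference was called (adjusted p = 4.62e-05). Even after the rise, the MDA231 arrays stayed below all SUM159PT arrays in SNAI1.

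SNAI2 rose in MDA231 from 9.44, 9.40 and 9.45 to 10.46, 10.41 and 10.51, or 205% of the control signal (change 1.03 ± 0.16, adjusted p = 7.61e-06). In SUM159PT it was at 11.05, 11.11 and 11.05 after 24 h (change 0.67 ± 0.16, adjusted p = 0.00992), a call that was lost without siCONTROL array B (adjusted p = 0.0591). In BT549 it had come back to 8.29, 8.22 and 8.54, within the range of the controls (change -0.19, adjusted p = 0.408). The effect at 24 h differed between lines (adjusted p = 0.000648), and the mean change was 0.50 ± 0.09 (adjusted p = 8.33e-05).

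ZEB1 fell in MDA231 from 10.07, 10.03 and 9.96 to 9.55, 9.43 and 9.49 (change -0.53 ± 0.08, adjusted p = 1.41e-05). In SUM159PT it read 9.30, 9.39 and 9.35 (change -0.10, adjusted p = 0.645), and in BT549 10.37, 10.28 and 10.32 (change -0.21, adjusted p = 0.0893). All 9 treated arrays lay below every control array of their line. At 24 h 33.2%, 32.9% and 27.5% of all genes did not overlap their controls in MDA231, SUM159PT and BT549. The lines differed (adjusted p = 0.0325), and the mean change was -0.28 ± 0.05 (adjusted p = 5.47e-05). ZEB2 was not called at 24 h in any line. Its changes were -0.18 in MDA231, 0.21 in SUM159PT and -0.23 in BT549 (adjusted p = 0.247, 0.263 and 0.0901).

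TWIST1 rose in MDA231 from 5.78, 5.53 and 5.51 to 6.03, 6.05 and 6.07, still far below the 8.57 and 9.91 that were the lowest 24 h values of SUM159PT and BT549 (change 0.44 ± 0.11, adjusted p = 0.00236). TWIST1 changed by -0.04 and 0.08 in those lines, and TWIST2 by 0.04, -0.10 and -0.20 in MDA231, SUM159PT and BT549, with none of these called.

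CDH1 in MDA231 went from 4.34, 4.21 and 4.35 to 4.50, 4.82 and 4.73, with no overlap but at a dim signal (change 0.38 ± 0.13, adjusted p = 0.0358). The call was lost with array medians aligned (adjusted p = 0.0774) and in 5 of the 6 cases in which an array was left out, all but AZD6244 24h array A (adjusted p up to 0.178). CDH11 rose in MDA231 from 11.09, 10.95 and 10.97 to 11.39, 11.43 and 11.33 (change 0.38 ± 0.09, adjusted p = 0.00293), though not with the arrays of that line alone (adjusted p = 0.0627). Its changes of -0.18 in SUM159PT and -0.02 in BT549 were not called, and the lines differed (adjusted p = 0.00974). CDH2 was not called at 24 h in any line (0.15, -0.09 and -0.26, adjusted p = 0.558, 0.836 and 0.187).

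In MDA231 CDH11 thus fell by 0.53 with siDUSP4 and rose by 0.38 with 24 h of selumetinib. Both changes rest on the same 3 control arrays, and DUSP4 signal was below siCONTROL in both groups (18.7% and 41.8%).

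VIM fell in BT549 after 24 h from 11.85, 11.96 and 11.87 to 11.61, 11.73 and 11.68 (change -0.22 ± 0.07, adjusted p = 0.0372). The call was lost with the arrays of that line alone (adjusted p = 0.116), with the arrays of the 2 groups alone (0.372), with the replicate letter as a block (0.0577), and without siCONTROL array B (0.169), siCONTROL array C (0.0721) or AZD6244 24h array A (0.15). That array A also had the low upper quartile given above, whose part in the call was not tested. Without AZD6244 24h array C, 3 genes were called in BT549. In the mean of the 3 lines ZEB1, SNAI1 and SNAI2 were called, where 26.5% of all genes were. TWIST1 was just outside the threshold there (0.16, limma adjusted p = 0.0501) and stayed uncalled in 4 of 6 alternative settings. VIM (-0.10, adjusted p = 0.0844) stayed uncalled in 3 of 6. Effects at 24 h differed between lines for 4 of the 10 genes (ZEB1, SNAI1, SNAI2 and CDH11), where 9.91% of all genes did.

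The 4 h and 24 h arrays were also compared with each other, which uses no control array. In MDA231 5 genes were called, where 24.9% of all genes were and where the median of all genes was 0.12. SNAI1 was higher at 24 h by 1.07 ± 0.16 (adjusted p = 5.23e-06), SNAI2 stood at 214% of its 4 h signal (SE 0.16 on the log2 scale, 3.71e-06), CDH11 was higher by 0.59 ± 0.09 (1.25e-05) and CDH2 by 0.47 ± 0.14 (0.0108), and ZEB1 was lower (-0.32 ± 0.08, adjusted p = 0.00448). With the arrays of the 2 groups alone the adjusted p was 0.29 for ZEB1, 0.17 for CDH2 and 0.0559 for CDH11. Leaving out AZD6244 4h array C lost the call of ZEB1 (adjusted p = 0.0855). Leaving out AZD6244 4h array B, 24h array B or 24h array C lost that of CDH2 (0.119, 0.072 and 0.0539).

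In BT549 SNAI2 alone was called between the time points, and it fell by 1.04 from 4 h to 24 h (SE 0.16, adjusted p = 0.000521), where 7.73% of all genes were called. With the arrays of the 2 groups alone this was not called (adjusted p = 0.19). In SUM159PT limma called no gene of the 10, where 3.01% of all genes were called. None of the 10 had an unadjusted p under 0.05, for which the share of all genes is not given here. The SNAI2 difference between the time points was 0.11 there (95% interval -0.21 to 0.43). By the calls of the main fit, SNAI2 was higher at 4 h alone in BT549, at both times in SUM159PT and at 24 h alone in MDA231. The 4 h calls in SUM159PT and BT549 were each lost with single arrays left out, as given above. The line difference in SNAI2 at 4 h was itself not called. An F test of whether the 24 h minus 4 h difference varied between the lines, added after these values were seen, gave an adjusted p of 1.46e-07 for SNAI2, and called 28.2% of all genes.

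The wider programme was described with 4 lists of genes, given as counts and medians beside those of all genes. Of 31 mesenchymal genes measured, siDUSP4 lowered 11 in MDA231, 12 in SUM159PT and 15 in BT549, and raised none, 1 and none, where 9.77%, 1.78% and 9.22% of all genes were lower. The list medians were -0.18, -0.23 and -0.38, against 0.01, -0.04 and 0.01 over all genes. In the mean of the 3 lines 21 were lower and none higher, where 11.3% of all genes were lower, with a median of -0.31 against -0.01 over all genes. TNC, which encodes the matrix glycoprotein tenascin C, fell by 1.70 in MDA231 and 0.69 in SUM159PT, and its change of -0.18 in BT549 was not called. SPARC, for a collagen-binding matrix protein, fell by 1.36 in BT549 and 0.62 in MDA231. COL6A1, a collagen VI chain, fell in all 3 lines, by 0.68, 0.62 and 0.93 in MDA231, SUM159PT and BT549. FN1, the fibronectin gene, fell by 0.88 in BT549, and is named here after its value was seen. In BT549 the fibroblast markers LUM and FAP were lower too (by 1.14 and 0.75), 2 of the 5 measured, and their part in the result was not tested, while PDGFRA, PDGFRB and DCN stood at 4.30, 4.30 and 3.72. In SUM159PT 3 of the 5 were lower, and PDGFRB fell by 1.29 there.

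**Figure D3:**
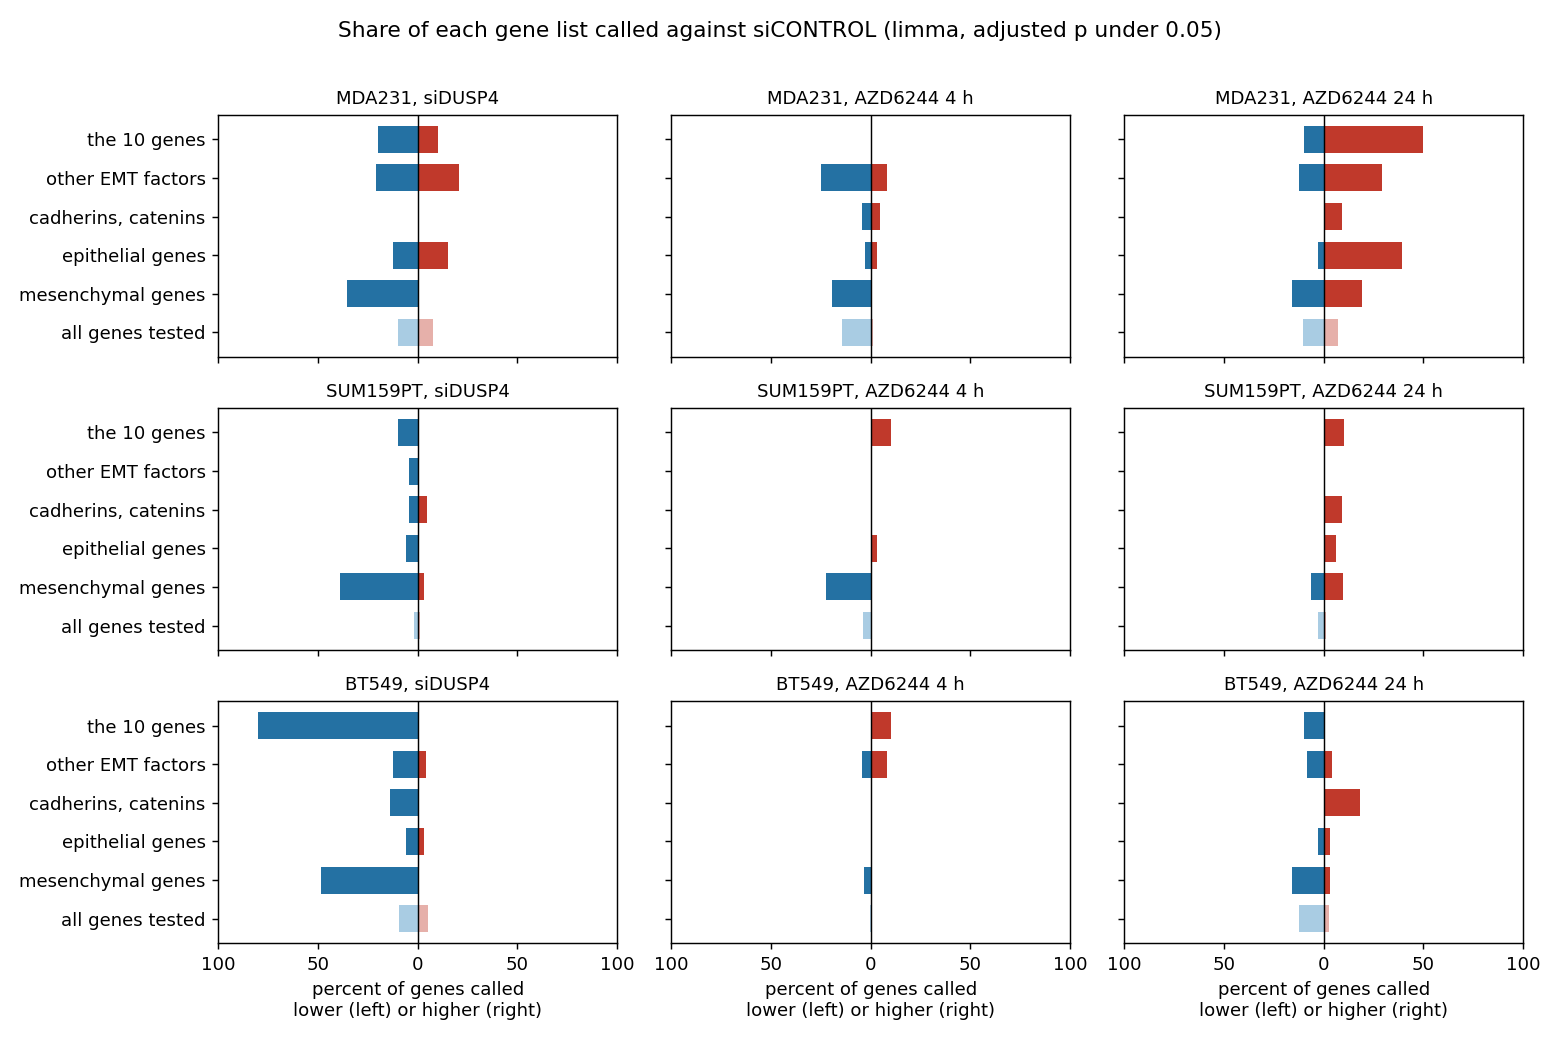
Percent of each list called lower (left, blue) or higher (right, red) against siCONTROL, a panel for each line and treatment, with the share of all genes tested in pale bars at the bottom. The 10 genes in BT549 after siDUSP4 reach 80% lower, and the mesenchymal list lies mostly to the left after siDUSP4 in all 3 lines.

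With selumetinib, in the mean of the 3 lines 9 of 31 were lower and none higher at 4 h (12.7% of all genes were lower), and 6 were lower and 6 higher at 24 h, where 19.2% of all genes were lower and 7.24% higher. NT5E, which encodes the surface enzyme CD73, was lower by 0.40 at 4 h and 0.70 at 24 h, and it was called in each of the 3 lines at both times. Some markers stand on both the fibroblast and the mesenchymal list (FAP, PDGFRB and DCN). PDGFRB, a growth factor receptor gene, was higher at 24 h by 0.54 in the mean, and by 0.98 in SUM159PT. TNC fell by 0.90 in MDA231 at 24 h.

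Epithelial genes that ZEB and SNAIL factors are known to repress were followed as a list of 33 measured genes. After 24 h of selumetinib 13 were higher and 1 was lower in MDA231 (median 0.19, all genes 0.02), while 2 were higher in SUM159PT and 1 each way in BT549. That is 42.4%, 6.06% and 6.06% of the list, against 17.7%, 4.28% and 15.1% of all genes. MUC1, a surface mucin gene, rose by 2.15 in MDA231 and 0.84 in SUM159PT. MAL2, for an apical transport protein, rose by 1.75 in MDA231. CLDN1, a tight junction claudin gene, moved the other way there and fell by 1.22. At 4 h the list gave 1 higher (ELF3, an epithelial transcription factor gene, by 0.98) and 1 lower (CLDN1, by 1.27) in MDA231, or 6.06% of the list against 15.6% of all genes. After siDUSP4 5 were higher and 4 lower in MDA231 (27.3% of the list, 17.6% of all genes), with MAL2 at 1.63 and KRT19, a simple epithelial keratin gene, at -0.79. In SUM159PT 2 were lower and none higher (6.06%, all genes 2.83%). In BT549 1 was higher and 2 lower (9.09%, all genes 14.2%), with a list median of 0.04 against 0.01 over all genes. Among the factor genes, SNAI1, SNAI2 and TWIST1 were called higher and ZEB1 lower (-0.53) in MDA231 at 24 h. In the same arrays 13 of these 33 genes were higher and 1 was lower. Whether these changes were linked was not tested.

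Other transition factors and their partners formed a list of 24 measured genes. After siDUSP4 10 were called in MDA231 (5 each way), 1 in SUM159PT and 4 in BT549. These are 41.7%, 4.17% and 16.7% of the list, against 17.6%, 2.83% and 14.2% of all genes. PRRX1, a homeobox factor gene of mesenchyme, fell by 1.84 in BT549 (adjusted p = 1.2e-10), and its change in MDA231 was 0.25 (adjusted p = 0.324). RUNX2 fell by 0.83 in MDA231 and 0.62 in SUM159PT. With selumetinib in MDA231 2 were higher and 6 lower at 4 h (33.3% called, all genes 15.6%), and 7 higher and 3 lower at 24 h (41.7%, all genes 17.7%). FOSL1, an AP-1 gene known to depend on ERK, fell by 1.71 there at 4 h and again at 24 h. ID3, which encodes an inhibitor of helix-loop-helix factors such as TWIST, rose by 1.37 at 4 h and 2.78 at 24 h, and ID2 by 0.62 and 1.76.

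Of 22 other cadherin and catenin genes, siDUSP4 lowered 3 in BT549 (13.6% of the list, 14.2% of all genes) and called none in MDA231, where 17.6% of all genes were called. The list median in BT549 was 0.05, against 0.01 over all genes. In SUM159PT 1 was higher and 1 lower (9.09%, all genes 2.83%). They were CDH8 (0.61, adjusted p = 0.0403), which was also higher in the mean of the 3 lines (0.33 ± 0.10, adjusted p = 0.0143), and CDH24 (-0.57, adjusted p = 0.0296), which was lower in that mean (-0.30 ± 0.09, adjusted p = 0.0135). CDH3, which encodes P-cadherin, fell by 1.29 in BT549, from 10.35 to 9.06. In the mean of the 3 lines at 24 h of selumetinib 7 of the 22 were higher and none lower, where 26.5% of all genes were called and 7.24% were higher, among them CDH10 (0.44), CDH6 (0.42) and CDH12 (0.32). CDH12 was dim, at 3.38 in BT549 siCONTROL. CDH3, which stands on both the cadherin and the epithelial list, rose by 0.70 in SUM159PT at 24 h and is named there after its value was seen.

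With the mean of each line removed, the 10 genes were compared with each other over the 36 arrays, which share lines, treatments and controls. The highest Pearson correlations among them were 0.74 for SNAI2 with CDH1, 0.73 for CDH1 with CDH11 and 0.71 for SNAI2 with CDH11, and the lowest was -0.50 for ZEB1 with SNAI1. Among all other genes above the median level, the 3 most like CDH11 were IFNGR1, P4HA2 and CA12 (r = 0.94, 0.94 and 0.94). For SNAI2 they were VASN, GAS1 and IFIT1 (0.88, 0.88 and 0.86), for ZEB1 DOCK10, RAI14 and PCGF6 (0.84, 0.79 and 0.77), and for ZEB2 TOB1, GATAD2B and PIK3R1 (0.86, 0.85 and 0.84). TWIST1 was nearest to CITED2, MDK and LIPA (0.84, 0.79 and 0.77), and TWIST2 to ATP6V1F, ST6GALNAC4 and RPP38 (0.84, 0.83 and 0.79). CDH2 was nearest to GJA1, TAB3 and CPXM1 (0.80, 0.80 and 0.80), and VIM to SPTLC2, WDR24 and PUM2 (0.83, 0.81 and 0.80). CDH1 and SNAI1 lay below the median level and were not searched.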

How the data were processed

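RNA of 36 human breast cancer cell line arrays was measured on Affymetrix gene arrays. The deposited values are log2 signals per probe, for which the submitters' processing notes name RMA and the program Affymetrix Expression Console 1.1, used by the authors. RMA subtracts background, equalises the arrays' distributions and sums probes on the log2 scale, so low signals are compressed and shifts common to all genes are meant to be removed. In the deposited values they were not fully removed. Upper quartiles of the arrays ran from 7.48 to 8.03. For AZD6244 4h in MDA231 repeated quantile normalization moved the median of all genes from -0.13 to -0.04. The genome build of the array annotation is not given in the sources used here.

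Of 33297 probes, 21236 were annotated, 19181 with 1 symbol and 2055 with several, which were left out. Gene IDs matched RefSeq for 19143, and 0 symbols changed. The brightest probe by mean over 36 arrays stood for a gene, giving 17958 genes. Dim genes were kept. Groups came from the titles. limma 3.58.1 in R 4.3.3 was fitted to 12 group means over all 36 arrays (24 residual and 7.8 prior degrees of freedom), with Benjamini-Hochberg adjustment over all genes within each of 21 comparisons and calls at adjusted p under 0.05. Errors beside changes are limma standard errors, whose size depends on having 3 arrays per group. The fit was tested on simulated data.

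Alternatives were a second quantile normalization, medians of the arrays aligned, dim genes left out, the mean of all probes, fits within a line or 2 groups, a replicate block, trended robust variance and each array left out. The genes named beside the 10 were, per list and treatment, the 3 called genes with the largest mean change, and per member the 3 genes most correlated after removing line means, members and unnamed loci aside, and other names are marked as chosen after their values were seen. The markers of other cell types and RB1 are label checks. The 10 genes and the 4 lists were chosen with earlier results of these data known.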

Additional observations from a re-analysis of the deposited data

Results flagged for a closer look

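Effects that differed between the lines by limma's F test are given here with adjusted p, over all genes. For siDUSP4 they were SNAI2 (4.58e-05), CDH2 (0.00167), ZEB2 (0.00233), CDH11 (0.0064), SNAI1 (0.00667), TWIST2 (0.0169), CDH1 (0.019), TWIST1 (0.0289) and VIM (0.045). In 7 of these 9 genes the change of largest size was in BT549, SNAI1 and VIM being the others, whose largest change was in MDA231. For 24 h of selumetinib they were SNAI1 (4.62e-05), SNAI2 (0.000648), CDH11 (0.00974) and ZEB1 (0.0325), each with the largest change in MDA231. For the difference between 24 h and 4 h, tested after the values were seen, they were SNAI2 (1.46e-07), CDH11 (0.000533), SNAI1 (0.000793), ZEB1 (0.0134) and CDH2 (0.0364). The siDUSP4 and 24 h tests share their control arrays, and the last test shares the 24 h arrays with the 24 h test. These tests called 15.5%, 9.91% and 28.2% of all genes.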

How the results depend on the processing

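Of the changes of the 10 genes with a direction, 64 were called, and 50 of these stayed called in every alternative and with every array left out. Of the 116 not called, 93 were called in none, and 0 changes turned sign with a call. With the arrays of a line alone the genes called became 1 for siDUSP4 in MDA231 (3 before), 3 for siDUSP4 in SUM159PT (1), 2 for AZD6244 4h in SUM159PT (1), 0 for AZD6244 4h and 0 for AZD6244 24h in BT549 (1 each), and 3 for 24 h against 4 h in MDA231 (5). With the arrays of 2 groups alone they became 3 for siDUSP4 in SUM159PT, 0 for AZD6244 4h and 0 for AZD6244 24h in BT549, 2 for 24 h against 4 h in MDA231 and 0 in BT549 (1). Repeated quantile normalization gave 2 for siDUSP4 and 2 for AZD6244 24h in SUM159PT (1 each), and 5 for the mean AZD6244 24h effect (3). In that mean the split was 2 higher and 1 lower, 3 and 2 after quantile normalization, and 2 and 2 with aligned medians. In the mean at 4 h it was 1 and 1, and 2 and 0 after quantile normalization, and in MDA231 between 4 h and 24 h it was 4 and 1, and 4 and 2. The line difference at 4 h gave 1 gene (0 before) with dim genes filtered, with the mean of all probes, with the replicate block and with trended robust variance, and that variance gave 2 for 24 h against 4 h in BT549. The cause was not tested.

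With the replicate letter as a block, AZD6244 24h in BT549 gave 0 genes (1 before). Deviations of same-letter arrays correlated over 0.1 in 4, 7 and 1 of 18 pairs in MDA231, SUM159PT and BT549 (lowest -0.41, highest 0.45). The median correlations were -0.04, 0.05 and -0.03, against 0.05, -0.05 and 0.01 for pairs with unlike letters. These values cannot tell whether the letters mark shared batches. With 1 array left out, counts ran from 0 to 2 for AZD6244 4h in MDA231, 0 to 0 in SUM159PT and 0 to 1 in BT549. They ran from 0 to 1 for AZD6244 24h in SUM159PT, from 0 to 3 in BT549, from 0 to 1 for the line difference at 4 h (1 without MDA231 AZD6244 4h array A, BT549 siCONTROL array C or BT549 AZD6244 4h array A) and from 1 to 2 for 24 h against 4 h in BT549 (2 without AZD6244 24h array C). For the line difference with siDUSP4 they ran from 6 to 9. Aligned medians moved the median of all genes from -0.01 to -0.15 in SUM159PT against BT549. CDH1 lay near the dim end, where signals are compressed, as did SNAI1 and TWIST2 in MDA231 siCONTROL.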

Other observations

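The miR-200 family is known to bind the ZEB1 and ZEB2 messages and to hold epithelial cells in their state, so the array probes of its precursor genes were read as well, a list added after the values of the 10 genes were seen. The mature sequences (RefSeq, GRCh38.p14) fall into 2 groups by their seed (bases 2 to 8), which is in capitals and is the part that pairs with a target.
hsa-miR-141-3p: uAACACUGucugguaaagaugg
hsa-miR-200a-3p: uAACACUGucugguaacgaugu
hsa-miR-200b-3p: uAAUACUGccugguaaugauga
hsa-miR-200c-3p: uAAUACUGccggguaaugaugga
hsa-miR-429: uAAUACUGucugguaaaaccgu
The array probes read the precursor genes, not these mature forms. All 5 were dim in every line. MIR200C ran from 3.18 to 3.91 over the 36 arrays, MIR200A from 3.32 to 4.24, MIR141 from 3.76 to 4.59, MIR200B from 4.20 to 5.39 and MIR429 from 4.50 to 5.40. None was called by limma after siDUSP4 in any line or in the mean of the 3 lines. After 24 h of selumetinib MIR200B and MIR200C were called higher in the mean of the 3 lines (0.24 ± 0.09 and 0.20 ± 0.07, adjusted p = 0.0412 and 0.0456). There 26.5% of all genes were called and 7.24% were higher. MIR141 was called in BT549 (0.43 ± 0.14, adjusted p = 0.0348), where 15.1% of all genes were. In MDA231 none of the 5 was called at 24 h, where 17.7% of all genes were, and MIR141 changed by 0.09 (adjusted p = 0.773). Any link of these precursor genes to ZEB1 was not tested.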
